A study of Magallana hongkongensis with 2 samples.

Results

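The extracellular matrix transcripts of the Hong Kong oyster gill were examined here: 245 assembled transcripts ("unigenes") of the 21226 listed in either of 2 libraries. They were taken by their description, which had to hold the word collagen, hemicentin, fibrillin, laminin, fibulin, von Willebrand factor, matrilin, perlecan or basement membrane and not the word receptor. Both libraries are polyadenylated RNA from gill of adult, wild, diploid Crassostrea hongkongensis, now also called Magallana hongkongensis, that had been acclimated for 2 weeks. One group stayed at 23 °C throughout, and the other spent 1 h at 37 °C before going back to 23 °C. The series asks which transcripts differ after the heat shock. Each group has 1 library. The heat-shocked one pools gill of 10 oysters, and the number of oysters behind the control one is not given in the labels.

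The extracellular matrix is the protein meshwork that holds tissue together. Fibrillar collagens form its cables, collagen IV, laminin and perlecan form the basement membrane under each epithelium, and fibrillins and fibulins form microfibrils and link matrix proteins to each other. Hemicentins are long chains of immunoglobulin repeats that, in nematodes, tether cells and basement membranes. A bivalve gill is a sheet of ciliated epithelium folded over blood spaces and held up by skeletal rods rich in collagen, so it needs both an epithelial basement membrane and a firm connective tissue. Oyster unigenes carry the name of their best protein match. Of the 245, 229 (93.5%) were named after the Pacific oyster, Crassostrea gigas, against 77.1% of all unigenes.

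Uniquely mapped reads came to 3925349 in the library labelled control and to 4173215 in that labelled heat shock. Heat shock transcripts went against these labels: the 111 unigenes described as heat shock proteins took 5.12% of the reads under the control label and 0.559% under the heat shock label. The libraries are therefore named by their labels throughout, and no direction given here can be read as a direction of heat. With 1 library a group there is no replicate check. Every interval has a confidence of 95%, comes from the exact binomial (Clopper-Pearson) method given the summed reads, and accounts for counting error alone. It sets these 2 libraries side by side, not the conditions. A ratio is the share of reads under the heat shock label over the share under the control label, unless stated, and in each pair of values the control label comes first. A unigene was tested with at least 20 reads in both libraries together, and called when in addition its ratio was at least 2 in either direction with an interval that excluded 1. Over all 17364 tested unigenes the log2 ratio had a median of 0.17 and not 0, so values are to be read against 0.17. With TMM factors, a scaling that sets the bulk of genes to no difference, the median of all unigenes became 0.01 and every log2 ratio dropped by 0.16.

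Matrix transcripts were slightly more abundant in the library labelled heat shock as a whole, and most of them differed little. Together the 245 unigenes held 57615 reads under the control label, or 1.47% of that library (exact binomial interval 1.46 to 1.48%), and 74335 reads under the heat shock label, or 1.78% (1.77 to 1.79%). The ratio of these sums was 1.21 (1.20 to 1.23), and 1.08 with TMM factors. In pooled tissue, more cells of a type and more RNA per cell cannot be told apart. Calls were few. Of the 179 tested members, 14 were called higher in the library labelled heat shock, 7.82% of them beside 3.97% of all tested unigenes, and 6 were called lower, 3.35% beside 3.25%. The median log2 ratio of the tested members was 0.32, and 65.9% of them lay above the median of all unigenes. Small ratios were frequent among the members: the interval lay above 1 for 74 of 179 (41.3%, beside 23.0% of all tested unigenes) and below 1 for 14 (7.82%, beside 8.91%). With TMM factors these were 47 (26.3%, beside 12.3%) and 19 (10.6%, beside 14.8%). Deeply sequenced unigenes have narrower intervals, so the same was counted among those with at least 100 reads. There it lay above 1 for 66 of 114 members (57.9%, beside 30.9%) and below 1 for 9 (7.89%, beside 11.4%). The other 66 members had at most 19 reads each. Of these, 23 were listed in only 1 of the files, with at most 6 reads.

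**Figure D1:**
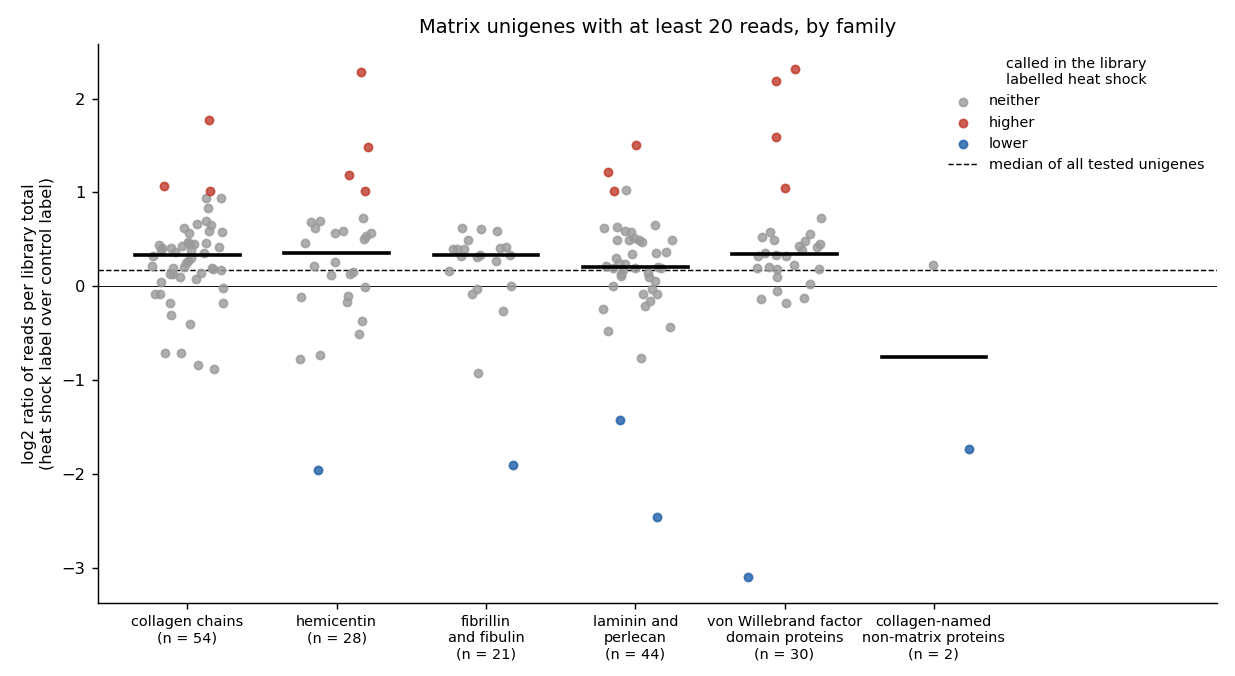
Log2 ratio of reads (heat shock label over control label, scaled to library totals) of the 179 tested matrix unigenes by family; each point is 1 unigene, the thick bar is the family median, and the dashed line is the median of all tested unigenes at 0.17. Family medians lie between 0.21 and 0.36 for the 5 matrix families, and the called unigenes are few and scattered in both directions. The last column holds the lysyl hydroxylase and a ceramide transfer protein, which are not matrix proteins.

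Words for other cell types of the dissection gave these values. The 106 unigenes of cilia, which mark the gill's ciliated cells, took 1.28% and 1.55% of the libraries, a summed ratio of 1.21 (1.20 to 1.22), which is that of the matrix unigenes. All but 3 of them were listed under the control label and all but 1 under the heat shock label, the missing ones being 3 dynein heavy chains and 1 radial spoke protein. Muscle unigenes, all 39 listed in both libraries, took 0.268% and 0.327% of the reads, with a ratio of 1.22 (1.19 to 1.25). The 6 unigenes of defensins, lysozymes and bactericidal permeability proteins, which blood cells carry, had a ratio of 1.48 (1.34 to 1.64). Mucin unigenes had a ratio of 1.20 (1.16 to 1.24). Shell and mantle unigenes had a ratio of 1.01 (0.968 to 1.06). Of the 26, 7 were at 0 under the heat shock label, namely 5 nacreins, a mantle gene and a perlucin. These 7 had only 1 to 3 reads each under the control label, too few to tell absence from low counts. Cilia, mucin, gonad and digestive gland unigenes at 0 in 1 library had at most 6 reads in the other. Gonad words gave a ratio of 1.18 (1.15 to 1.21) and digestive gland words 1.14 (1.06 to 1.23), while 3 unigenes caught by words for algae gave 0.624 (0.521 to 0.747). The unigene with most reads was Sperm-associated antigen 17 (1023 and 1301) for gonad and Neurotrypsin (500 and 587) for digestive gland. For shell and mantle it was Chitin synthase 1 (1843 and 1966). All these lists were picked by words and need not mark 1 tissue or cell type alone. Their part in the matrix result was not tested.

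A few unigenes held most matrix reads. Level per length is given as RPKM, the deposited reads per kilobase scaled to the library total. The tested members had a median RPKM, averaged over both libraries, of 18.8, beside 13.9 for all tested unigenes. The member with most reads was Fibrillin-3 (Unigene0013879, 4422 bases), which alone held 20.3% of the matrix reads under the control label and 20.9% under the heat shock label. The 10 members with most reads held 50.3% and 50.6%, so that their share was nearly equal in both libraries.

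**Figure D2:**
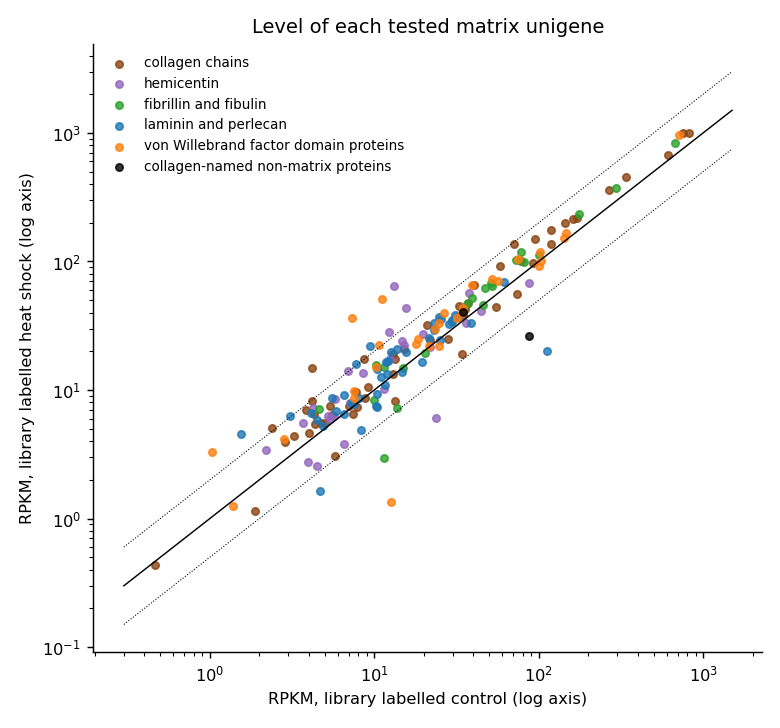
RPKM (reads per kilobase of length and per library total, deposited by the authors) of each tested matrix unigene in the library labelled control (x axis) and in the library labelled heat shock (y axis), both on log axes; the solid line marks equal levels and the dotted lines a ratio of 2. Most points lie on or just above the solid line from under 1 to about 1007 RPKM. The points beyond the dotted lines reach no higher than 112 RPKM in either library.

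Collagen chains were the largest family, with 84 unigenes. They held 20063 reads under the control label and 26934 under the heat shock label, a summed ratio of 1.26 (1.24 to 1.29), or 1.13 with TMM factors. Of 54 tested chains 3 were called higher (5.56%, beside 3.97% of all tested unigenes) and none lower (beside 3.25%). With TMM factors 1 was called higher and 1 lower. The interval lay above 1 for 23 (42.6%, beside 23.0%) and below 1 for 4 (7.41%, beside 8.91%). The median log2 ratio of the chains was 0.34.

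The most abundant chains were matched to collagen VI, which forms beaded filaments beside the basement membrane in vertebrates. Collagen alpha-3(VI) chain (Unigene0028996, 533 bases) stood at 826 and 997 RPKM, a ratio of 1.21 (1.13 to 1.29). A Collagen alpha-5(VI) chain (Unigene0023805, 891 bases) had 757 and 1007 RPKM, a ratio of 1.33 (1.27 to 1.40). Another Collagen alpha-3(VI) chain (Unigene0026253, 704 bases) had 612 and 670 RPKM and a ratio of only 1.09 (1.02 to 1.17), which turned to 0.976 with TMM factors. The 3 had levels within the same range, but the intervals of Unigene0023805 and Unigene0026253 did not overlap. Below them lay many shallow unigenes of the same collagen: 49 carried a collagen VI name, and 22 of these had too few reads to test. Of the 16 named Collagen alpha-4(VI) chain, 13 had too few reads, and all 16 together held 94 and 74 reads, with a ratio of 0.741 (0.539 to 1.01). The 12 named alpha-6(VI) held 458 and 818 reads, with a summed ratio of 1.68 (1.497 to 1.89), or 1.499 with TMM factors. Among these, Unigene0031033 had 252 and 515 reads, with a ratio of 1.92 (1.65 to 2.24) that just missed the rule. It is named after its values were seen.

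Collagen alpha-2(I), the match to the cable-forming fibrillar collagens, had 7 unigenes of like ratio. All 7 were tested, with ratios between 1.19 and 1.49, and 6 of the 7 intervals lay above 1 (85.7%, beside 23.0% of all tested unigenes). Together they held 5805 and 8258 reads, with a ratio of 1.34 (1.29 to 1.38), or 1.19 (1.15 to 1.24) with TMM factors. These may be pieces of fewer genes, since the files do not say which unigenes come from 1 gene. They are therefore not 7 independent measurements. Collagen IV is the network collagen of basement membranes. Collagen alpha-1(IV) chain (Unigene0013553, 6592 bases) had 2375 and 2695 reads, with a ratio of 1.07 (1.01 to 1.13), which was 0.952 with TMM factors. Both unigenes of Collagen alpha-5(IV) chain had more reads under the control label, 197 against 179 in sum, with a ratio of 0.855 (0.694 to 1.05). With TMM factors it was 0.763 (0.619 to 0.938), an interval below 1. It is named after its values were seen, as are alpha-1(IV) and alpha-2(I).

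The called collagens were all of low level. Collagen-like protein 2 (Unigene0015410, 2559 bases) had 87 reads under the control label and 187 under the heat shock label, a ratio of 2.02 (1.56 to 2.64). It had 8.66 and 17.5 RPKM, far below the collagen VI chains. The other 2 calls had under 50 reads and are named because they are so few: a collagen alpha-1(II) chain-like unigene matched to a frog (Unigene0003012) had 9 and 34 reads, with a ratio of 3.55 (1.67 to 8.42). A Collagen alpha-2(VIII) chain (Unigene0007456) had 11 and 25 reads, with a ratio of 2.14 (1.02 to 4.81). With TMM factors only Unigene0003012 of the 3 stayed called, and the Collagen alpha-1(XII) chain Unigene0025651, with 100 and 59 reads, became a lower call. The collagen XII matches are chains that coat fibrils in vertebrates; their 10 unigenes held 1746 and 2269 reads, and their tested ratios ran from 0.555 to 1.58.

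Fibrillins and fibulins held 1 call. The 29 unigenes held 16790 and 22274 reads, a summed ratio of 1.25 (1.22 to 1.27), and 1.11 with TMM factors. Of 21 tested, none was called higher (beside 3.97% of all tested unigenes) and 1 was called lower (4.76%, beside 3.25%). The interval lay above 1 for 9 (42.9%, beside 23.0%) and below 1 for 2 (9.52%, beside 8.91%). Their median log2 ratio was 0.33. Fibrillin-3 had 11696 reads under the control label and 15505 under the heat shock label, with 674 and 840 RPKM and a ratio of 1.25 (1.22 to 1.28). Without it the family's summed ratio was 1.25 (1.20 to 1.30), so the sum had the same ratio with and without this unigene. Fibrillin-1 was split over 21 unigenes with 4291 and 5755 reads in all. The most abundant per length, Unigene0023264 (939 bases), had 297 and 375 RPKM and a ratio of 1.26 (1.16 to 1.36), and the next, Unigene0007231 (1208 bases), had 175 and 233 RPKM and a ratio of 1.33 (1.22 to 1.46). Both lay beside the Fibrillin-3 ratio. The intervals below 1 belonged to other Fibrillin-1 unigenes. One was the call, Unigene0023806 (894 bases), with 40 reads under the control label and 11 under the heat shock label. It was 3.87-fold higher under the control label (1.95 to 8.35). The other, Unigene0021393 (1124 bases), had 61 and 34 reads, with a ratio of 0.524 (0.334 to 0.810), and became a lower call with TMM factors. It is named after its values were seen. Fibulin-2 (Unigene0015025), which bridges microfibrils and basement membranes in mammals, had 523 and 736 reads, with a ratio of 1.32, named after its values were seen.

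The basement membrane family was mixed, with laminins near the median of all unigenes and perlecan above it. Its 51 unigenes held 6044 and 7188 reads, a summed ratio of 1.12 (1.08 to 1.16) that was 0.998 (0.964 to 1.03) with TMM factors. Among 44 tested, 3 were called higher (6.82%, beside 3.97% of all tested unigenes) and 2 lower (4.55%, beside 3.25%). The interval lay above 1 for 13 (29.5%, beside 23.0%) and below 1 for 4 (9.09%, beside 8.91%). The median log2 ratio was 0.21. The 34 tested laminins had a median of 0.20, or 0.04 with TMM factors. Perlecan, the heparan sulfate proteoglycan that binds growth factors in basement membranes, had 11 unigenes with 1527 and 1975 reads and no call. The 10 tested had a median log2 ratio of 0.49, or 0.33 with TMM factors. Of their intervals, 5 of 10 lay above 1 (beside 23.0% of all tested unigenes) and none below (beside 8.91%). That none of these 10 was called stands beside 3.97% of all tested unigenes called higher and 3.25% called lower. Its most abundant unigene (Unigene0000859, 1138 bases) had 61.3 and 69.1 RPKM and a ratio of 1.13 (0.956 to 1.33). Over all 11 the ratio was 1.22 (1.14 to 1.30), or 1.09 (1.01 to 1.16) with TMM factors.

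Laminins are crosses of 1 alpha, 1 beta and 1 gamma chain. The 2 unigenes of Laminin subunit gamma-1 held 564 and 760 reads, with a ratio of 1.27 (1.13 to 1.42). The 8 unigenes matched to beta subunits held 1314 and 1406 reads, with a ratio of 1.01 (0.933 to 1.09), and of these the 6 named beta-4 had a ratio of 0.858 (0.766 to 0.962). Beta-1 (Unigene0000732, matched to the sea hare Aplysia californica) had 660 and 806 reads, with a ratio of 1.15 (1.03 to 1.27) whose interval overlapped that of gamma-1. The 3 named alpha-3 held 405 and 511 reads, with a ratio of 1.19 (1.04 to 1.35). The 5 named Laminin subunit alpha, without a number, had a ratio of 1.39 (1.25 to 1.54). With TMM factors the gamma chain came to 1.13 and the beta chains to 0.898. The intervals of gamma-1 and beta-4 did not overlap, whereas those of gamma-1, beta-1 and alpha-3 did. These pools were made after their values were seen. Laminin-like protein epi-1 is named after a nematode laminin alpha chain. Its most abundant unigene (Unigene0000568, 1674 bases) had 38.8 and 33.5 RPKM and a ratio of 0.863 (0.720 to 1.03). Over all 4 epi-1 unigenes, also pooled after their values were seen, the summed ratio was 1.002 (0.892 to 1.125).

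Unigenes named Laminin subunit alpha-2 held calls in both directions. Of 13 tested, 2 were called higher (15.4%, beside 3.97% of all tested unigenes) and 1 lower (7.69%, beside 3.25%). Unigene0001338, of 664 bases, had 291 reads against 56 under the heat shock label. At 112 RPKM it was the most abundant laminin unigene under the control label, and at 20.2 RPKM under the heat shock label it was 5.52-fold lower (4.14 to 7.49). Unigene0010738, of 597 bases, had 22 and 55 reads, with a ratio of 2.35 (1.41 to 4.05). The third, Unigene0011882, had 6 and 19 reads, with a ratio of 2.98 (1.14 to 9.11). The summed ratio of all 17 alpha-2 unigenes was 0.906 (0.830 to 0.990), and without Unigene0001338 it was 1.20 (1.08 to 1.32). Laminin subunit alpha (Unigene0001570) had 16 and 35 reads, with a ratio of 2.06 (1.11 to 3.98) that was no call with TMM factors. The laminin call that remains, Laminin subunit beta-4 (Unigene0023998), had 16 and 6 reads and was 2.83-fold higher under the control label (1.05 to 8.85). It and Unigene0011882 are named after their values were seen.

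**Figure D3:**
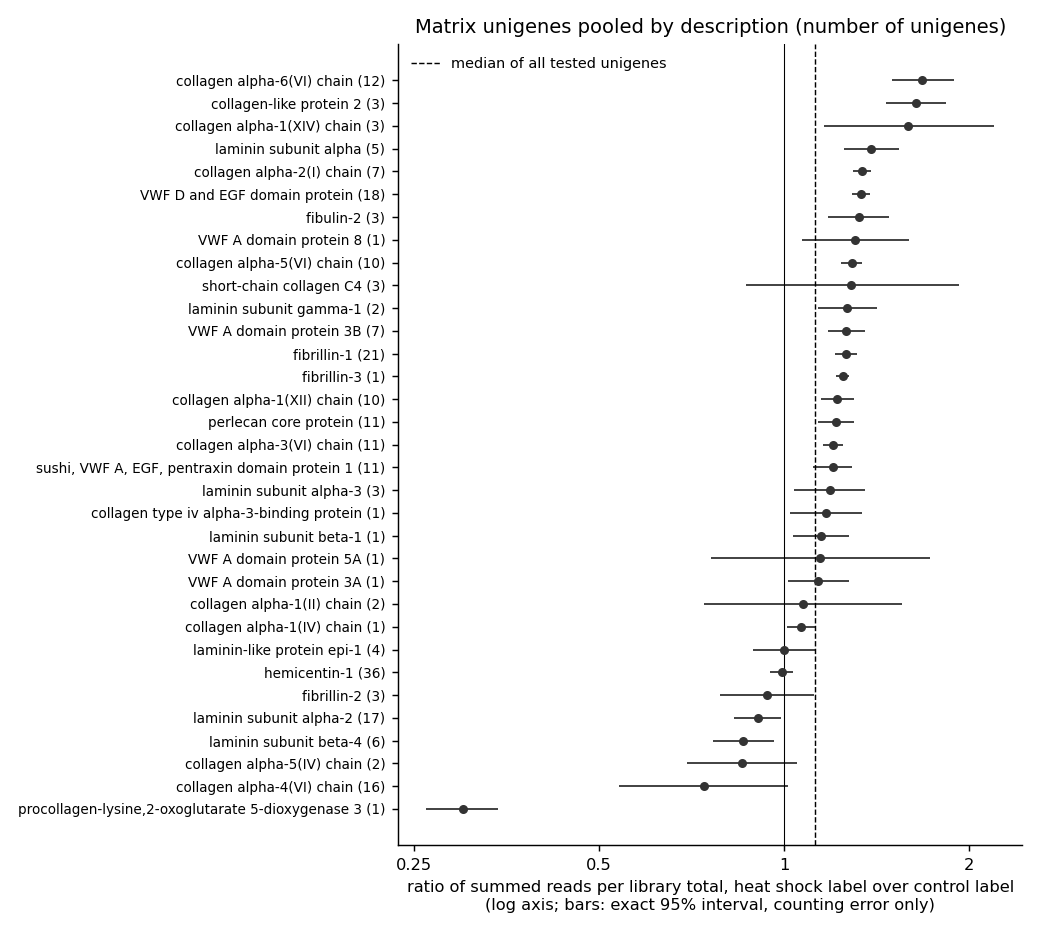
Ratio of summed reads (heat shock label over control label, per library total, log axis) for each description with at least 100 reads over both libraries; bars are exact 95% intervals for counting error, and numbers in brackets count the unigenes pooled. Most collagens, fibrillins and von Willebrand factor D and EGF proteins lie to the right of the dashed line, the median of all tested unigenes, whereas hemicentin, laminin alpha-2 and laminin beta-4 lie to its left and the lysyl hydroxylase lies far to the left at 0.300.

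For Hemicentin-1, the sum and the median stood apart. Its 36 unigenes held 3991 and 4206 reads, a summed ratio of 0.991 (0.949 to 1.03), or 0.885 (0.847 to 0.924) with TMM factors. The median log2 ratio of the 28 tested was 0.36, above that of all unigenes. Of the 28, 4 were called higher (14.3%, beside 3.97% of all tested unigenes) and 1 lower (3.57%, beside 3.25%). The interval lay above 1 for 10 (35.7%, beside 23.0%) and below 1 for 2 (7.14%, beside 8.91%). Among the 36, 2 long unigenes weighed on the sum. Hemicentin-1 Unigene0013715 (4997 bases) had 1706 and 1406 reads, with a ratio of 0.775 (0.722 to 0.832), and was the most abundant hemicentin at 87.0 and 67.4 RPKM. Unigene0013833 (4571 bases) had 424 reads and only 116 under the heat shock label, and was 3.89-fold higher under the control label (3.16 to 4.81). Without both, the summed ratio of the remaining 34 was 1.36 (1.28 to 1.44). Without Unigene0013833 alone it was 1.08, and without Unigene0013715 alone 1.15.

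The 4 hemicentins called higher were short, and each stood under 16 RPKM under the control label. Hemicentin-1 Unigene0025484, of 757 bases, had 39 reads (13.1 RPKM) under the control label and 203 (64.3 RPKM) under the heat shock label. The second of these levels is close to that of Unigene0013715, and the ratio was 4.90 (3.46 to 7.09). Unigene0012681 (509 bases) had 31 and 93 reads, with a ratio of 2.82 (1.86 to 4.38). Unigene0028599 (557 bases) had 27 and 66 reads, with a ratio of 2.30 (1.45 to 3.74), and Unigene0027424 (626 bases) had 17 and 37, a ratio of 2.05 (1.12 to 3.88) that was no call with TMM factors. The abundant hemicentins Unigene0012156 and Unigene0025299 stood much nearer to 1, with ratios of 0.929 (0.744 to 1.16) and 1.51 (1.19 to 1.92).

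Proteins with von Willebrand factor domains, adhesive modules found in many secreted and some intracellular proteins, held both the highest and the lowest ratio among tested members. Their 41 unigenes held 9420 and 12946 reads, a summed ratio of 1.29 (1.26 to 1.33), or 1.15 with TMM factors. Of 30 tested, 4 were called higher (13.3%, beside 3.97% of all tested unigenes) and 1 lower (3.33%, beside 3.25%). The median log2 ratio was 0.35. The interval lay above 1 for 18 (60.0%, beside 23.0%) and below 1 for 1 (3.33%, beside 8.91%). All 4 higher calls were among the 18 unigenes named for von Willebrand factor D and EGF domains (VWDE), a secreted protein linked to limb regeneration in axolotls. Unigene0009026, of 3672 bases, had 106 reads (7.35 RPKM) under the control label and 561 (36.6 RPKM) under the heat shock label, a ratio of 4.98 (4.04 to 6.19). Unigene0013448, of 666 bases, had 29 and 142 reads, with a ratio of 4.61 (3.07 to 7.12). Their ratios lay within each other's intervals. A weaker call was Unigene0025115 (781 bases), with 33 and 73 reads at a ratio of 2.08 (1.36 to 3.24), which was no call with TMM factors. The shallow Unigene0020513 had 5 and 17 reads, with a ratio of 3.20 (1.13 to 11.1), and is named after its values were seen.

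The abundant unigenes of this name were not called. Unigene0021133 (1166 bases) had 3279 and 4684 reads and stood at 716 and 963 RPKM, among the most abundant matrix transcripts, with a ratio of 1.34 (1.28 to 1.41). Unigene0005485 (1087 bases) had 147 and 167 RPKM and a ratio of 1.13 (1.02 to 1.26), and Unigene0005486 (851 bases) had 142 and 151 RPKM and a ratio of 1.07 (0.942 to 1.21), or 0.953 with TMM factors. Over all 18 the summed ratio was 1.34 (1.29 to 1.38), and without Unigene0009026 and Unigene0013448 it was 1.25 (1.21 to 1.30).

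SVEP1, the name given by sushi, von Willebrand factor type A, EGF and pentraxin domains, is a matrix protein that binds integrins in mammals. Its 11 unigenes held 1328 and 1695 reads. Among them Unigene0023800 (888 bases) had 44 reads and 5 under the heat shock label, and was 9.36-fold higher under the control label (3.72 to 30.2). That is the ratio farthest from 1 among all tested members, on few reads; it is named after its values were seen, since it has 49 reads in all. There were 11 unigenes of numbered von Willebrand factor A domain proteins, of which VWA8 is mitochondrial in mammals. The 10 tested had ratios between 1.02 and 1.41. None was called, beside 3.97% of all tested unigenes called higher and 3.25% called lower. Both Matrilin-2 unigenes, named after a matrix linker of vertebrates, had 2 and 5 reads in sum.

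**Figure D4:**
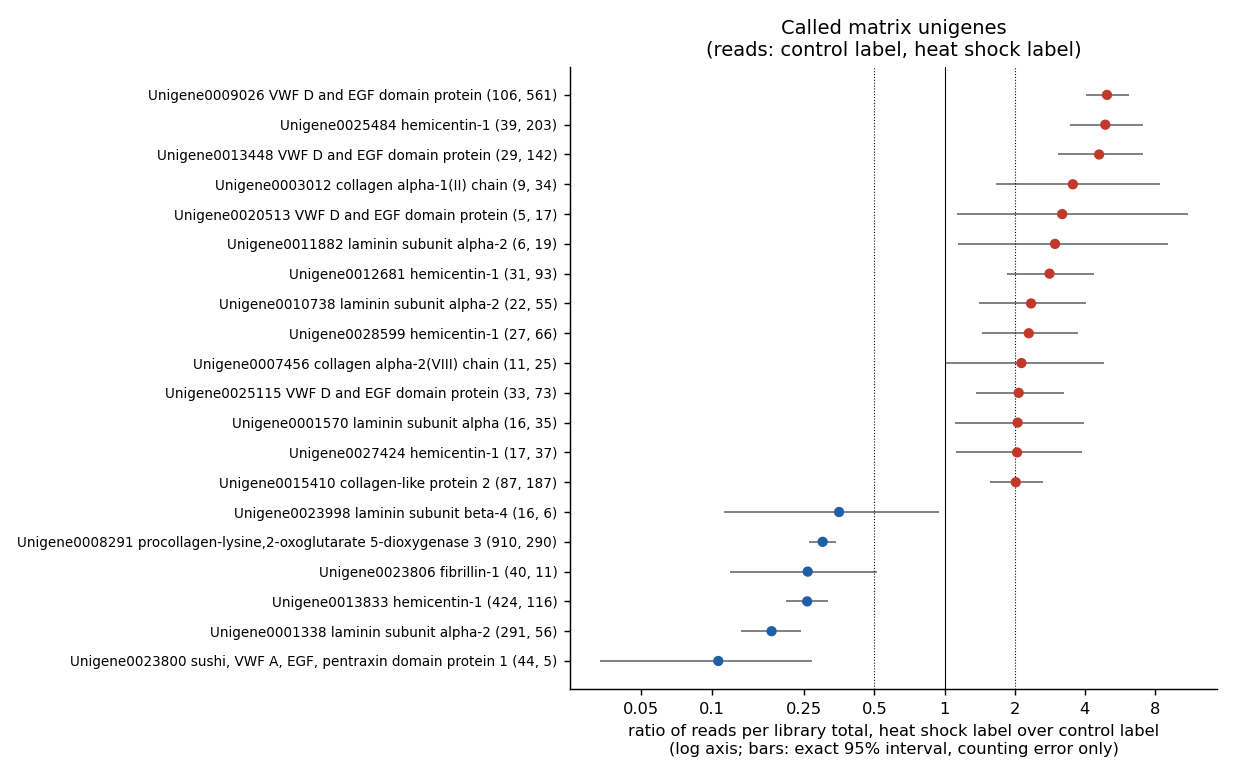
Ratio of reads per library total (heat shock label over control label, log axis) of the 20 called matrix unigenes, with exact 95% intervals for counting error; brackets give the reads, control label first, and dotted lines mark ratios of 0.5 and 2. The 3 unigenes with a ratio above 4 have intervals wholly above 3, whereas several others rest on fewer than 40 reads and reach close to 1.

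The 1 member that is an enzyme of collagen synthesis was the lower call with most reads. Procollagen-lysine,2-oxoglutarate 5-dioxygenase 3 (Unigene0008291, 2654 bases) is the enzyme of the endoplasmic reticulum that hydroxylates and, in mammals, glycosylates lysines of new collagen chains. With 910 and 290 reads, or 87.4 and 26.2 RPKM, it was 3.34-fold higher under the control label (2.92 to 3.82). The collagen chains had a summed ratio of 1.26 in the opposite direction. Caught by the word collagen but unrelated to matrix, Collagen type IV alpha-3-binding protein, which carries ceramide between membranes in mammals, had 395 and 492 reads, with a ratio of 1.17 (1.02 to 1.34).

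Other collagen-processing enzymes had intervals on both sides of 1. Of the 13 unigenes of hydroxylases and lysyl oxidases, this member included, 1 was called lower (7.69%, beside 3.25% of all tested unigenes). None was called higher (beside 3.97%). The interval lay below 1 for 3 (23.1%, beside 8.91%) and above 1 for 1 (7.69%, beside 23.0%). Their summed ratio was 0.767 (0.722 to 0.814) while their median log2 ratio was 0.14, or -0.02 with TMM factors. The sum turned without Unigene0008291: the other 12 held 1511 and 1683 reads, with a ratio of 1.05 (0.977 to 1.12), or 0.935 (0.872 to 1.003) with TMM factors. The 2 other intervals below 1 belonged to Prolyl 4-hydroxylase subunit alpha-1, which hydroxylates prolines so that the triple helix is stable: Unigene0003908 had 262 and 178 reads, with a ratio of 0.639 (0.525 to 0.776). Unigene0003907 had 72 and 45 reads, with a ratio of 0.588 (0.396 to 0.865). Other unigenes of this name had intervals that held 1. Unigene0000418 had 36 and 40 reads, with a ratio of 1.045 (0.649 to 1.69). Unigene0016988 had 10 and 17 reads, with a ratio of 1.60 (0.692 to 3.91). The most abundant unigene of the list, Lysyl oxidase-like protein 2 (Unigene0023689), which cross-links collagen outside the cell, had 715 and 838 reads, with a ratio of 1.10 (0.996 to 1.22). The prolyl hydroxylases were named after their values were seen.

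Receptors for the matrix and proteins linked to them held no call, beside 3.97% of all tested unigenes called higher and 3.25% called lower. The 25 tested were unigenes of integrins, Integrin beta-1-binding protein 1, dystroglycan, delta-sarcoglycan, syndecan, glypican and discoidin domain receptors. Their interval lay above 1 for 8 (32.0%, beside 23.0% of all tested unigenes) and below 1 for 1 (4.0%, beside 8.91%). The median log2 ratio was 0.12, or -0.05 with TMM factors. Syndecan (Unigene0007924), the most abundant, had 1912 and 2192 reads, with a ratio of 1.08 (1.01 to 1.15). Matrix proteases, which trim the matrix, and their inhibitors had 33 tested unigenes. Of these, 2 were called higher (6.06%, beside 3.97% of all tested unigenes) and 1 lower (3.03%, beside 3.25%), or 1 and 1 with TMM factors. Intervals lay above 1 for 7 of the 33 (21.2%, beside 23.0%) and below 1 for 7 (21.2%, beside 8.91%). The 33 had a median log2 ratio of 0.05, or -0.12 with TMM factors. Their calls were all ADAMTS proteases. The named ADAMTS 9 unigene (Unigene0005599) had 18 and 42 reads, with a ratio of 2.19 (1.24 to 4.05) that was no call with TMM factors. The ADAMTS 1 unigene (Unigene0010264) was 3.11-fold higher under the control label (1.62 to 6.36).

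Unigenes caught by matrix words other than the 9 held more higher than lower calls. Of 141 tested, such as tenascins, fibropellins, agrin and thrombospondins, 13 were called higher (9.22%, beside 3.97% of all tested unigenes) and 2 lower (1.42%, beside 3.25%), or 11 and 5 with TMM factors, and the median log2 ratio was 0.19, close to that of all unigenes. Tenascin (Unigene0030838), an adhesion-modulating protein with EGF repeats, had 36 and 116 reads, with a ratio of 3.03 (2.07 to 4.54). Tenascin-X (Unigene0024781) had 18 and 58 reads, also a ratio of 3.03 (1.76 to 5.47). Fibropellin-1 (Unigene0010149), first known from the sea urchin embryo, had 14 and 39 reads, with a ratio of 2.62 (1.39 to 5.23). Like the called hemicentins, the 3 were of low level. Of the 2 lower calls, 1 was a thrombospondin-related anonymous protein matched to Babesia bovis (Unigene0022982, 26 and 7 reads), which need not be a matrix protein. The other was Cartilage matrix protein (Unigene0015026, 20 and 8 reads). Both are named after their values were seen. The TGF-beta and bone morphogenetic protein pathway, which controls matrix synthesis in vertebrates, had 24 tested unigenes. Of these, 1 was called higher (4.17%, beside 3.97% of all tested unigenes) and none lower (beside 3.25%). The pathway had a median log2 ratio of 0.23. Its most abundant, Transforming growth factor-beta-induced protein ig-h3 (Unigene0015357), itself a secreted matrix protein, had a ratio of 1.25 (1.16 to 1.35).

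Coverage is the percent of a unigene's length touched by reads. It comes from the same reads as the calls and rises with their number, so it is no separate support for a call. Beside unigenes of like length and depth, some called members stood apart in it. Hemicentin-1 Unigene0013833 was covered over 75.2% of its length under the control label and over 23.3% under the heat shock label. The 296 unigenes of like length with a like number of reads per kilobase under the heat shock label had a median coverage of 57.4%, and none of them was covered as little. Its 116 reads under that label thus lay on a small part of the unigene. Laminin subunit alpha-2 Unigene0001338 was covered over 67.0% under the control label despite 438 reads per kilobase, where 217 like unigenes had a median of 96.2%. Its coverage hardly differed under the heat shock label, at 63.1%.

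The higher calls with the largest ratios were covered nearly whole under the heat shock label. Hemicentin-1 Unigene0025484 went from 77.9% to 99.7% covered, beside medians of 78.0% and 94.9% for like unigenes. The von Willebrand factor D and EGF Unigene0009026 went from 47.5% to 97.3%, beside 60.9% and 91.2%, so that its reads lay along nearly all of its length there. Hemicentin-1 Unigene0028599 was thinly covered in both, at 37.9% and 65.5%, beside 77.4% and 90.5%. Under the heat shock label, Collagen-like protein 2 Unigene0015410 was also thinly covered, at 62.6% beside 82.4%. So were laminin Unigene0001570 (37.8% beside 60.6%) and collagen Unigene0007456 (34.7% beside 55.0%). Other higher calls lay above like unigenes there, such as laminin Unigene0010738 (92.3% beside 87.0%) and collagen Unigene0003012 (89.2% beside 82.0%). The lysyl hydroxylase was covered over 97.0% and 89.5%, close to the 94.3% and 87.9% of like unigenes. Reads of closely similar copies are not in these counts when they map to several unigenes, so members with repeated domains are uncertain where copies are near-identical.

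**Figure D5:**
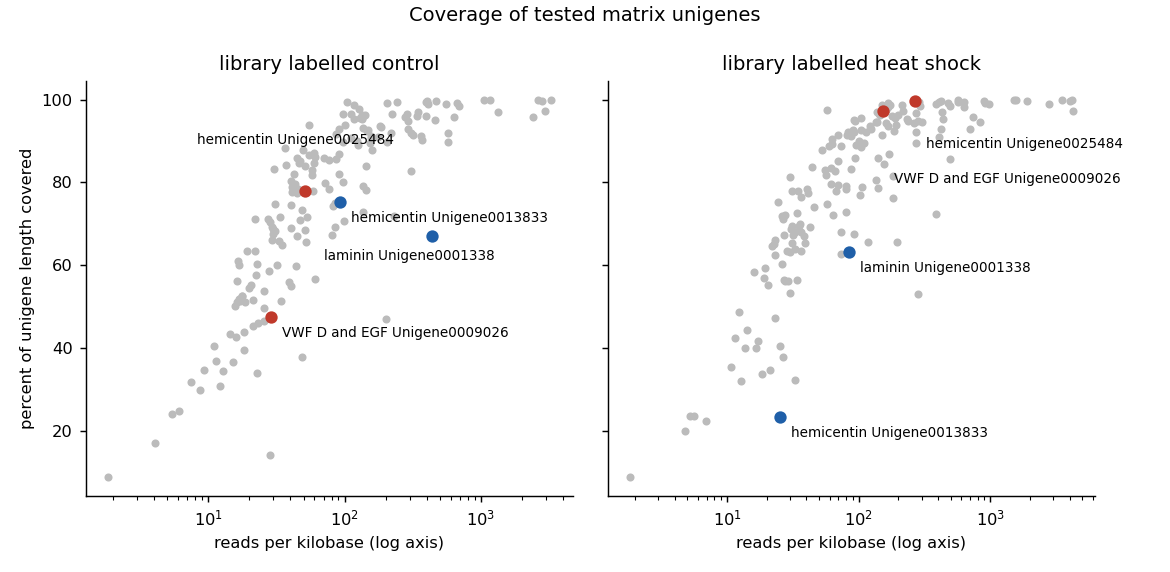
Percent of the unigene length covered by reads against reads per kilobase (log axis) for tested matrix unigenes in each library. Red points are Unigene0009026 and Unigene0025484, both higher calls, and blue points are Unigene0013833 and Unigene0001338, both lower calls. All remaining tested members are grey, and the other called ones are among them. Hemicentin-1 Unigene0013833 falls from within the cloud under the control label to 23.3% covered, below the points of like depth, under the heat shock label.

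In the submitters' pathway annotation, 32 of the 245 members (13.1%) were assigned to ECM-receptor interaction, the pathway of matrix binding to its receptors, beside 0.400% of all unigenes. They made up 37.6% of the unigenes of that pathway. Focal adhesion was assigned to 29 members (11.8%), beside 1.30% of all unigenes. Most members thus carried a matrix description with neither pathway attached.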

How the data were processed

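Gill libraries were made from polyadenylated RNA by Illumina protocols, per the labels' protocols. CASAVA 1.4 and cutadapt 1.8.1 are named in the submitters' processing notes, without their roles; nothing used here names an aligner or an assembler. Each deposited file gives, per the file headers, for every listed unigene the count of uniquely mapped reads, its length, the coverage in percent of the length, the RPKM and a description. The deposited RPKM values equalled count over length and library total to a relative difference of 5.1e-15. A unigene absent from 1 file was set to 0 reads.

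Counts were scaled to library totals. No replicate test is possible, so edgeR (4.0.16) and DESeq2 (1.42.0) gave only TMM factors and the median of ratios as alternatives. Log2 ratios of single unigenes used a prior count of 0.5. Coverage was compared with unigenes of 0.5 to 2 times the length and within 20% in reads per kilobase. The limit that a count of 0 allows, 3 reads, is 0.764 CPM under the control label and 0.719 CPM under the heat shock label. PCR copies are not independent molecules, which intervals do not cover. Named members are called ones with at least 50 reads (up to 12 a direction), the 3 with the highest RPKM in each family, and Unigene0025484 and Unigene0009026; in other lists, up to 3 called unigenes or the most abundant. Members and lists were chosen with earlier results of these data known. Alternatives were other scalings, minima of reads, ratios, intervals and prior counts. Sequences were not used here.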

Additional observations from a re-analysis of the deposited data

How the results depend on the processing

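The count of 14 members called higher became 9 with TMM factors, 9 with the median of ratios, 9 with a stricter interval, 6 with a minimum of 100 reads, 27 with a ratio of at least 1.5 and 3 with a ratio of at least 4. The count of 6 called lower became 3 with a minimum of 100 reads, 10 with a ratio of at least 1.5 and 2 with a ratio of at least 4. Over all unigenes, 690 called higher became 406 with TMM factors, 405 with the median of ratios, 315 with a stricter interval, 196 with a minimum of 100 reads, 1851 with a ratio of at least 1.5 and 55 with a ratio of at least 4; 564 called lower became 312, 992 and 141 under the last 3 of these. TMM factors gave 8 members called lower, so the members' calls went from 14 against 6 to 9 against 8, and those of all unigenes from 690 against 564 to 406 against 758. The median log2 ratio of the tested members, 0.32, became 0.15 with TMM factors and 0.15 with the median of ratios (0.1495), and the summed ratio of 1.21 became 1.08 with both. Of the 29 named members, 2 crossed a ratio of 1: Collagen alpha-3(VI) chain Unigene0026253 came to 0.976 with TMM factors and 0.974 with the median of ratios, and Unigene0005486, whose interval held 1 in any case, to 0.953 and 0.951. Without Unigene0008291 the summed ratio of the collagen-processing enzymes, 0.767, turned to 1.05. With a stricter interval, 5 of the 29 no longer excluded 1. Leaving out single unigenes was chosen after seeing the data. No paired analysis was possible because each group has 1 library, and for the same reason no replicate could be left out. Depth limits what the 66 members with at most 19 reads can show.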
